A study of Rattus norvegicus with 2 samples.

Results

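Tetraspanins are small membrane proteins that cross the membrane 4 times and gather integrins, immunoglobulin-superfamily proteins and proteases into shared membrane domains. The 10 genes described here are Cd9, Cd63, Cd81, Cd82, Cd151, Cd53, Cd37, Tspan3, Tspan4 and Tspan7, out of 14217 genes represented on the arrays by a probe set annotated to a single gene. They were chosen by gene symbol. Each was read by 1 probe set, so 10 probe sets cover the 10 genes. For 8 of the 10 genes 1 or both arrays gave a signal above the floor, which is the median of all signals (31.0). The same held for 9183 of all 14217 genes.

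Expression was measured with Affymetrix arrays in 2 clones of AT6.1, an established rat prostate cancer cell line. The Ndrg-1 array came from clone 7, transfected with pcDNA3 carrying N-myc downstream regulated gene-1 (gene symbol Ndrg1). The vector array came from clone 9 of the same line, transfected with pcDNA3 without an insert. Both clones were grown in RPMI medium with 10% FCS and under G418 at 0.3 mg/mL. Each group is 1 clone and 1 array, so no test across samples was possible, and clone, culture and array cannot be told apart from the insert. No source used here states the species or extent of the insert.

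Tetraspanins differ in what they are known for. CD82, also called KAI1, is a metastasis suppressor of prostate cancer that was isolated by transfer of a human chromosome into rat AT6.1 cells, the line studied here. CD9 and CD81 bind the immunoglobulin-superfamily proteins EWI-F and EWI-2, CD151 binds laminin-binding integrins and is usually described as promoting migration, and CD63 cycles through late endosomes and marks exosomes. CD53 and CD37 are tetraspanins of leukocytes.

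The deposited values are linear probe set signals that had been scaled to a common level, with a mean of 150.0 in both arrays after the lowest and highest 2% were removed. Log2 ratios below are the Ndrg-1 array over the vector array and are relative to the median gene. In the whole comparison 287 of the 9183 genes measured (above the floor in 1 or both arrays) were at least 2-fold different (3.13%), 149 higher (1.62%) and 138 lower (1.5%). The only error available is the probe set disagreement, the SD of the log2 ratio among several probe sets of the same gene, which was 0.23 (5341 probe sets, 2298 genes). These probe sets were split at the median (184) of the mean signal of their gene. The SD was 0.19 for probe sets of the brighter genes and 0.27 for those of the dimmer genes. They are called the brighter and the dimmer probe sets below. The probe set disagreement leaves out variation between clones, cultures and arrays. For Ndrg1 itself the brighter probe set read 1353 for the Ndrg-1 clone and 1062 for the vector clone (log2 ratio 0.34), and the dimmer read 154 and 181 (-0.24). The targeted gene therefore did not mark the Ndrg-1 array by a 2-fold difference on either probe set. Since the species and extent of the insert are not stated, whether these rat probe sets read it is unknown.

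The upstream sequences of the members are shown first, as a description. RefSeq promoter entries (rat assembly GRCr8) matched 8 of the 10 genes by symbol, and the 250 bases before the transcript start were read from each, 5' to 3' on the gene's strand. Cd82 and Tspan4, which were above the floor in both arrays, were not matched. CG dinucleotides are in capitals in the following 4 sequences. Cd9 (chr4:159975359-159975608, minus strand) and Cd63 (chr7:1921894-1922143, plus strand) had signals above the floor in both arrays, and Cd53 (chr2:197087897-197088146, minus strand) and Cd37 (chr1:104860785-104861034, minus strand) lay under the floor in both.
Cd9: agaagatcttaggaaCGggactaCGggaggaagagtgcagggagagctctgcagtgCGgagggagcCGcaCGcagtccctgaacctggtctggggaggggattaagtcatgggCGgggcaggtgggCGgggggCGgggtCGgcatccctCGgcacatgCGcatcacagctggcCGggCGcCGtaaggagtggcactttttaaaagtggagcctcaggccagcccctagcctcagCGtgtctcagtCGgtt
Cd63: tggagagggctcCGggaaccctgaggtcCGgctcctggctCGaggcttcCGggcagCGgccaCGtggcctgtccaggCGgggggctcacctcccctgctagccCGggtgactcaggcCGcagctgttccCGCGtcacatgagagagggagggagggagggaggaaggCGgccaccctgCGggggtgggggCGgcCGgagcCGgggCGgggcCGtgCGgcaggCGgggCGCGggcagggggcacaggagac
Cd53: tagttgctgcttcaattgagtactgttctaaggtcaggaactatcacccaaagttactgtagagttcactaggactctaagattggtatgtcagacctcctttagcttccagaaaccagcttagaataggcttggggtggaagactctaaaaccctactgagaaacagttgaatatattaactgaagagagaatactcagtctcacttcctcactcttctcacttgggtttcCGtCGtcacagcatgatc
Cd37: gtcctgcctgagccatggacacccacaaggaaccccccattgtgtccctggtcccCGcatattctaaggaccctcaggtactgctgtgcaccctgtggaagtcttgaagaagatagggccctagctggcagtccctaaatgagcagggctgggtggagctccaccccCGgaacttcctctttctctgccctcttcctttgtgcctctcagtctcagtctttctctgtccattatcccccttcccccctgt

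The Cd9 sequence held 16 CG dinucleotides and the Cd63 sequence 22, while Cd53 and Cd37 held 2 each. The other matched members held 13 (Cd81), 17 (Cd151), 27 (Tspan3) and 32 (Tspan7). Every matched member that was measured thus had at least 13, against a median of 5 over all 33469 RefSeq promoters of this length and an upper quartile of 15. Those promoters were not limited to genes on the array. The GC box letters GGGCGG, searched on both strands, occurred in the same 6 members and not in Cd53 or Cd37; 30.5% of all these promoters hold them. The AP-1 motif TGANTCA occurred only in Cd63 among the 8 (6.34% of all promoters), and TATAAA in none of the 8 (12.9% of all promoters). These are descriptions of letters in a window, over 8 genes chosen by name. Promoters of all genes above and below the floor were not compared, so a link of these letters to signal was not tested.

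Among the 8 members measured, 3 had a higher and 5 a lower signal in the Ndrg-1 array relative to the median gene. Over all genes measured, 4625 had a ratio above 0 and 4558 below. Scaled to the hybridisation spikes, the 7 members that could be measured were all above 0, with the median gene at 0.53. With Cd81 at its bound, none of the 8 reached 2-fold in either direction, beside the 3.13% of all genes that did; scaled to the hybridisation spikes, Cd9 did (1.19), as did 8.02% of all genes. The median log2 ratio of the 8 members was -0.30, and that of all genes measured was 0.0029. Quantile normalization brought the members' median to -0.10 and removal of a lowess trend brought it to -0.16. All genes measured then had medians of 0.0066 and 0.010. Among the 7 members above the floor in both arrays, the ratios ran from -0.53 for Cd82 to 0.65 for Cd9. The median size of the ratio was 0.40, against 0.19 over all such genes. That 0.40 is the size for Cd151, which quantile normalization brought to -0.19 and removal of a lowess trend to -0.22. How the median size compares with all genes under those settings was not worked out. Fewer cells with a transcript and less of it per cell cannot be told apart in these bulk RNA samples.

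**Figure D1:**
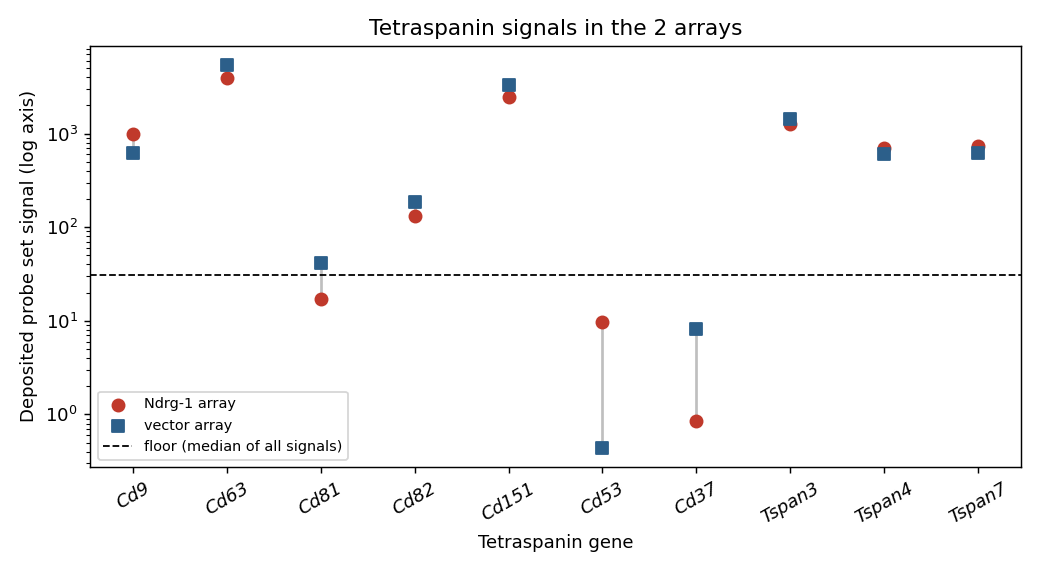
Deposited probe set signal (log axis) of the 10 tetraspanin genes in the Ndrg-1 array (circles) and the vector array (squares), 1 probe set per gene and 1 array per group, with the floor as a dashed line. Cd53 and Cd37 lie under the floor in both arrays and Cd81 in the Ndrg-1 array only; Cd9 shows the widest upward gap and Cd82 the widest downward gap among genes above the floor in both.

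Cd82, the metastasis suppressor, was lower in the Ndrg-1 array relative to the median gene. Cd82 read 131 for the Ndrg-1 clone and 188 for the vector clone, which is 1.44-fold lower (log2 ratio -0.53). That difference exceeded 2 SD of the probe set disagreement over all signals (0.46). It did not exceed 2 SD of the dimmer probe sets (0.53), to which Cd82 belongs with a mean signal of 157. Of all genes measured, 6.42% had a lower ratio, and 13.1% lay at least as far from 0. Quantile normalization gave -0.55 and removal of a lowess trend also -0.55. Scaling to the hybridisation spikes turned the ratio to 0.02, a constant shift that moved the median gene as well.

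Cd9, a tetraspanin tied to cell adhesion and motility, was higher in the Ndrg-1 array. Cd9 read 983 for the Ndrg-1 clone and 625 for the vector clone, which is 1.57-fold higher (log2 ratio 0.65). This was more than 2 SD of the disagreement in the brighter probe sets (0.38). Among the 856 genes of its signal decile, whose median ratio was -0.02, 1.75% were at least as high. Its log2 ratio was 0.67 both after quantile normalization and after removal of a lowess trend. The log2 ratios of Cd9 and Cd82 thus differed by 1.18 (2.26-fold), a difference that a constant scaling factor does not alter and that was 1.22 after quantile normalization and 1.23 after removal of a lowess trend. With the floor raised to the 75th percentile it was 0.79, because Cd82 in the Ndrg-1 clone was then under the floor.

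Cd81, the close relative of Cd9 and a partner of EWI proteins, was dim in both arrays. It read 17.1 for the Ndrg-1 clone, under the floor, and 41.6 for the vector clone, just above it, so only a bound can be given: at least 1.35-fold lower, a log2 ratio no higher than -0.43. A floor at the 25th percentile of signals (7.65) gave a ratio of -1.29, past 2-fold, in a setting where 7.4% of all genes measured were 2-fold different. With Cd81 at its bound, Cd81 and Cd9 stood on opposite sides of the median gene. That bound lies within 2 SD of the dimmer probe sets (0.53), and the size of the Cd81 difference depends on where the floor is set.

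Cd63 and Cd151 were among the brightest probe sets on the arrays and both read lower in the Ndrg-1 array; scaled to the hybridisation spikes they turned to 0.10 and 0.14, with the median gene at 0.53. Cd63, the late endosome and exosome tetraspanin, read 3964 for the Ndrg-1 clone and 5390 for the vector clone (log2 ratio -0.45). Cd151, the partner of laminin-binding integrins, read 2483 and 3263 (-0.40). Both differences exceeded 2 SD of the disagreement in the brighter probe sets (0.38). The 857 genes of the brightest signal decile, to which both belong, had a median ratio of -0.15, and the highest signal of any probe set was 4795 for the Ndrg-1 clone and 6446 for the vector clone. In that decile 7.23% of genes were at least as low as Cd63 and 11.0% at least as low as Cd151. Quantile normalization brought Cd63 to -0.05 and Cd151 to -0.19, and removal of a lowess trend brought them to -0.20 and -0.22.

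Tspan3, a widely expressed member, read 1259 for the Ndrg-1 clone and 1447 for the vector clone. Its log2 ratio of -0.20 is near the -0.15 median of the brightest decile, to which it also belongs, and is within 2 SD of the probe set disagreement. Tspan4, which is known from migrasomes, the vesicles left behind by migrating cells, read 702 and 602 (log2 ratio 0.22). Tspan7, a tetraspanin best known from neurons, read 737 and 623 (log2 ratio 0.24). These 3 genes were therefore not separated from the median gene by more than 2 SD of the probe set disagreement. In the RefSeq annotation Tspan4 is the neighbour of Cd151, with 1 gene lying wholly between them, Polr2l, a subunit of RNA polymerases with a log2 ratio of -0.04. The ratios of the 2 tetraspanin genes differed by 0.62 on the log2 scale, Cd151 being the lower. The gap was smaller after quantile normalization, with Cd151 at -0.19 and Tspan4 at 0.20. It was also smaller after removal of a lowess trend, at -0.22 and 0.22.

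**Figure D2:**
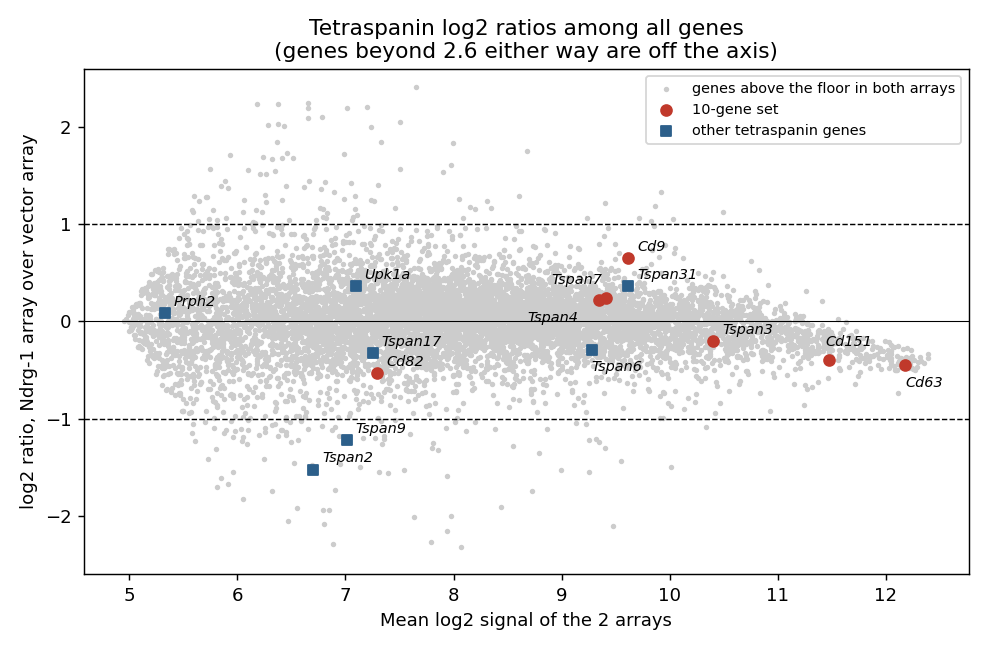
Log2 ratio of the Ndrg-1 array over the vector array against mean log2 signal, for genes above the floor in both arrays (grey), with 7 of the 10 genes as circles, other tetraspanin genes as squares and 2-fold as dashed lines. Cd9 stands highest of the circles at 0.65 and Cd82 lowest at -0.53, Cd63 and Cd151 lie where the grey cloud bends below 0, and Tspan2 and Tspan9 are beyond 2-fold lower. Scaled to the hybridisation spikes, Cd82, Cd63, Cd151 and Tspan3 would lie above 0.

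The leukocyte members could not be compared. Cd53 read 9.66 for the Ndrg-1 clone and 0.442 for the vector clone, and Cd37 read 0.861 and 8.21. Both lay under the floor in both arrays, so their ratios carry no measured direction. Of 15 other leukocyte markers on the array, 4 were measured and, with Csf1r at its bound, 0 were 2-fold different. Cd14 read 210 for the Ndrg-1 clone and 308 for the vector clone, Cd68 had 206 and 114, Fcer1g had 45.8 and 34.3, and Csf1r had 15.7 and 33.3. The leukocyte-defining gene Ptprc (2.72 and 3.25), the T cell gene Cd3e (17.0 and 19.0) and the B cell genes Cd79b (1.78 and 1.14) and Ms4a1 (14.3 and 5.07) were under the floor in both arrays. Summed over the 15 markers, signals came to 606 for the Ndrg-1 clone and 578 for the vector clone. As for the labelled cell type, 2 of 8 prostate epithelial markers were above the floor, Krt7 and Krt8, while Cdh1 and Epcam were not, and 6 of 8 mesenchymal markers were. Among all genes, 9183 of 14217 were above the floor in 1 or both arrays. Of the 6 mesenchymal markers, Col3a1 (356 for the Ndrg-1 clone and 1038 for the vector clone) was 2.93-fold lower. Col1a1 (167 and 76.9) was 2.16-fold higher, while Vim, Fn1, S100a4 and Acta2 did not reach 2-fold. Over all genes measured, 3.13% did.

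Beyond the 10 genes, the larger differences within the tetraspanin family were in Tspan2 and Tspan9. Of 24 further family genes looked up, 18 were on the array, 8 were measured, and 2 of these 8 were at least 2-fold lower, beside 1.5% of all genes; 0 were 2-fold higher. Tspan2, a tetraspanin described in oligodendrocytes and other cells, read 61.5 for the Ndrg-1 clone and 176 for the vector clone, 2.87-fold lower. Its second probe set had 35.4 and 135, 3.83-fold lower, so both probe sets went the same way. Tspan9, which is known from platelets, had 84.4 and 196, 2.34-fold lower, and its second probe set lay under the floor in both arrays (3.97 and 21.5). Of all genes measured, 0.457% had a lower ratio than Tspan2 and 0.795% a lower ratio than Tspan9. Scaled to the hybridisation spikes, Tspan2 was at -0.98 and Tspan9 at -0.68, neither at 2-fold, with the median gene at 0.53. Quantile normalization gave -1.54 and -1.25, and removal of a lowess trend -1.54 and -1.24. With the median over its probe sets Tspan9 was at -0.61, and with the floor at the 75th percentile the bounds were -0.05 for Tspan2 and -0.20 for Tspan9.

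No other family gene above the floor in both arrays reached 2-fold, and Tspan5 has only a bound. Upk1a, a uroplakin of the bladder lining, had the highest ratio, with 155 for the Ndrg-1 clone and 120 for the vector clone (log2 ratio 0.37). Tspan31 was at 0.36 and Prph2, a tetraspanin of photoreceptor discs, at 0.08. Both probe sets of Tspan6 were below 0, at -0.29 and -0.34, as were both of Tspan17, at -0.32 and -0.17. Tspan5 read 3.76 for the Ndrg-1 clone, under the floor, and 36.8 for the vector clone, which bounds its ratio at -0.25 or lower; it was at -2.27 with the floor at the 25th percentile and at -1.42 with a pseudocount of 16 in place of a floor. For Tspan33 the probe set that represented the gene was under the floor in both arrays, whereas another read 36.2 for the Ndrg-1 clone and 6.39 for the vector clone, a log2 ratio of at least 0.22.

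Tetraspanin family members of the TspanC8 group escort the protease ADAM10 to the cell surface. Of the 8 genes listed for this group and its sheddases, 6 were on the array and 4 were measured. With Tspan5 at its bound, 0 of the 4 were 2-fold different, beside 3.13% of all genes measured. Tspan17 was lowest at -0.32, apart from Tspan5 with its bound of -0.25. Adam10 was highest at 0.04, with 86.0 for the Ndrg-1 clone and 83.2 for the vector clone. Adam17, a related sheddase, read 524 and 649 (-0.31).

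Among 27 genes on the array for proteins that tetraspanins bind or regulate, 20 were measured, with those under the floor in 1 array at their bound, 7 with a ratio above 0 and 13 below, with a median of -0.15. Over all genes measured, 4625 had a ratio above 0 and 4558 below. Among the 20, only Cd36, a fatty acid and thrombospondin receptor, was 2-fold different, at 2125 for the Ndrg-1 clone and 968 for the vector clone (2.19-fold higher). That is 5.0% of the 20, near the 3.13% of all genes. The lowest ratio measured in both arrays was that of Itga7, a laminin-binding integrin subunit, at 68.0 and 133 (log2 ratio -0.97), while Itgb4 (14.9 and 46.4) lay below the floor for the Ndrg-1 clone, with a bound of -0.59. The second probe set of Itga7 above the floor was at -0.52. Of the classical partners of CD151, named here for that role after their values were seen, Itga3 had 455 and 769 (-0.76) and Itga6 had 731 and 888 (-0.29), with 2 further Itga6 probe sets at -0.25 and -0.45. The shared subunit Itgb1 had 2149 and 2372 (-0.15). Of the partners of CD9 and CD81, named likewise, Ptgfrn, which encodes EWI-F, was at 0.10 and Igsf8, which encodes EWI-2, at -0.15. Of these integrin subunits, those above the floor in both arrays did not reach 2-fold, and for Itgb4 the bound leaves the size unknown.

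CD63, CD81 and CD9 are carried on exosomes, and genes of exosome formation and late endosomes were described beside them. The list also held Timp1 (-0.39), which belongs to neither group. Of 22 listed genes with a probe set, 19 exceeded the floor in both arrays, 6 above 0 and 13 below. Their median was -0.07 and 0 were at least 2-fold different. Of all 9183 genes measured, 4625 were above 0, 4558 were below and 3.13% were at least 2-fold different. The brightest signal decile, which holds Anxa2, Ap2m1, Lamp1, Lamp2, Rab7a, Rab11a, Sdc4, Sdcbp and Timp1, had a median of -0.15. The lowest of the 19 was Flot1, a scaffold protein of membrane microdomains, with 444 for the Ndrg-1 clone and 631 for the vector clone (-0.51). The highest was Sdc1, the heparan sulphate proteoglycan syndecan-1, with 831 and 700 (0.24).

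Regulators of CD82 transcription that have been described include the acetyltransferase TIP60 (Kat5) with pontin (Ruvbl1), which act against reptin (Ruvbl2) with beta-catenin (Ctnnb1). Of 11 regulators on the array, 9 were measured, 4 with a ratio above 0 and 5 below. Of these 9, 0 were 2-fold different, beside 3.13% of all genes measured. Ruvbl1 was the highest, at 716 for the Ndrg-1 clone and 578 for the vector clone (0.31). Jun was the lowest, at 559 and 650 (-0.22), with its further probe sets at -0.42 and -0.31. Kat5 was at 0.28, Ruvbl2 at 0.14 and Ctnnb1 at 0.0027, the last 3 named for that role after their values were seen. Of 19 metastasis suppressor genes on the array, which include Cd82 and Cd9, 15 were measured, with a median of -0.07. With Arhgdib at its bound, 0 of the 15 were at least 2-fold different, beside the same 3.13% of all genes. Cd82 had the lowest ratio of these 15. Cd9 had the highest of those above the floor in both arrays, and Arhgdib, with the vector array under the floor, was at 0.64 or more.

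**Figure D3:**
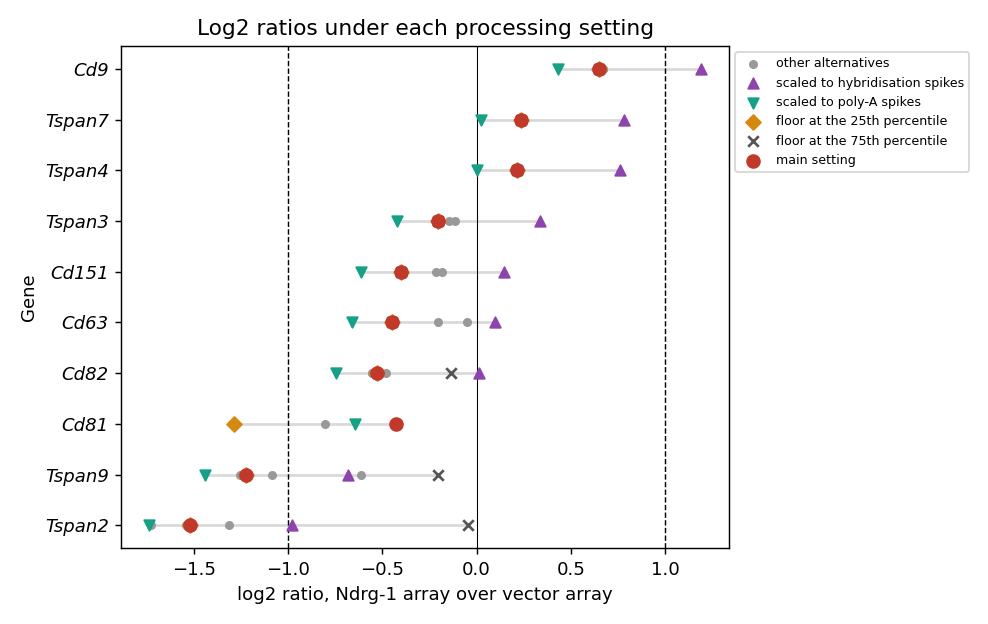
Log2 ratio of the Ndrg-1 array over the vector array for 8 of the 10 genes and for Tspan2 and Tspan9 under each processing setting, with 2-fold as dashed lines; Cd53 and Cd37 are left out and Cd81 has no value where both arrays were under the floor. Scaling to the hybridisation spikes adds a constant that moves all genes up, so that Cd82 reaches 0.02 and Cd9 1.19.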

How the data were processed

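Per the submitters' processing notes, the authors made the deposited intensities (probe set signals, linear scale) with GCOS 1.3; the algorithm, detection calls and scaling target are not named in the sources used here. Arrays have no read depth, and their number, 1 per group, limits the precision.

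Of 31099 probe sets, 57 controls were set apart and 20826 carried 1 gene symbol in the platform annotation, 436 several and 9780 none; 20758 matched RefSeq (GRCr8) by gene ID, used for current symbols. The vector array was multiplied by a constant (0.0048 on the log2 scale) that set the median ratio of the brighter 50% of probe sets to 0. Signals under the floor, the median of the signals of all probe sets that are not controls, were set to it. The probe set brightest on average on the log2 scale stood for its gene, and a difference was counted at 2-fold. Counting was tested on simulated data. Genes named were all 10 members, Ndrg1, and of each list of tetraspanin relatives, partners, regulators, exosome genes and metastasis suppressors those reaching 2-fold and the highest and lowest ratio; further genes, the cell type markers among them, were named outside this rule after their values were seen. Members, lists, settings and alternatives were chosen with earlier results of these data known. Alternatives were other scalings, a pseudocount of 16, a lower and a higher floor (25th and 75th percentile), the median over probe sets, and leaving out _x_at and _s_at probe sets. Python 3.11.15, numpy 2.4.6, pandas 2.3.3, statsmodels 0.14.6 and matplotlib 3.10.9 were used.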

Additional observations from a re-analysis of the deposited data

How the results depend on the processing

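With 1 array per group no array could be left out. No paired analysis was possible because each group holds a single array and no test was made. In the main setting only Tspan2 and Tspan9 of the tetraspanin genes were at 2-fold, and no alternative made either 2-fold higher. The alternatives reprocess the same 2 arrays, so this was not a test of direction. Of 78 alternative values for the members' log2 ratios, 66 moved by less than the SD of probe set disagreement and 12 by more. Scaling to the hybridisation spikes gave 679 genes 2-fold higher and 40 lower (8.02% of all genes measured) and moved the members' median to 0.34. Of 7 members and of 14 family genes then measured, 1 was at 2-fold, Cd9 (1.19) in both cases. Tspan2 was at -0.98 and Tspan9 at -0.68. Cd82 (0.02), Cd63 (0.10), Cd151 (0.14) and Tspan3 (0.34) changed sign in this setting, with the median gene at 0.53. Scaling to the poly-A spikes gave 254 genes 2-fold lower and moved the median gene to -0.21. With the floor lowered to the 25th percentile, 446 genes were higher and 463 lower (7.4% of all genes measured). Of 10 members 1 (Cd81) was then 2-fold different. Of 24 family genes 5 were (Cd81, Tspan2, Tspan5, Tspan9 and Tspan32). With the floor at the 75th percentile 23 genes were higher and 34 lower (0.99% of all genes measured). Of 11 family genes then measured, 0 were 2-fold different. Cd82 was at -0.14 in this setting, since the Ndrg-1 array lay at the floor. A pseudocount of 16 in place of the floor called 3 of 16 family genes (Tspan2, Tspan5 at -1.42 and Tspan9), beside 3.09% of all genes. It put Cd81 at -0.80. With the median over probe sets 1 of 17 family genes, Tspan2, was 2-fold different, beside 2.43% of all genes. Tspan9 was then at -0.61, since its second probe set lies under the floor.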
